A study of Canis lupus familiaris with 17 samples.

Results

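The 7 genes described here, NMB, TMEM132D, KIAA0825, KANK1, SYNJ2, ID3 and MYB, are markers of a cluster of CD4 and CD8 double-negative (DN) T cells in dog blood. All but MYB come from the study's short list of markers of that cluster, and MYB from its comparison of the cluster with other cytotoxic cells. They were chosen by their expression in a cluster that the study had made from these same cells, so their levels in T cells without CD4 and CD8A are a description and carry no test. They are 7 of the 20257 genes counted in each of 17 matrices. All 7 had an entry in every matrix, and all 7 passed the minimum of 10 counts in every T cell population in which osteosarcoma and healthy dogs were compared. They were followed in 43255 cells with at least 1 count of CD3E, a chain of the T cell receptor complex, out of 80557 cells kept.

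Most mature αβ T cells carry either CD4, a helper co-receptor, or CD8, a cytotoxic co-receptor. DN T cells carry a T cell receptor and neither co-receptor, and they comprise several unrelated kinds of cells, γδ T cells among them. ID3 is an inhibitor of E proteins, the transcription factors that control T cell development, and MYB is a transcription factor of stem cells, progenitors and thymocytes. NMB encodes neuromedin B, a bombesin-like peptide, TMEM132D a transmembrane protein, KANK1 an adaptor between adhesions and the cytoskeleton, and SYNJ2 a phosphatase of inositol lipids. CCR7 is the homing receptor of naive and central memory T cells, and GZMB encodes a granule protease of cytotoxic cells.

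Peripheral blood mononuclear cells were separated on Ficoll from client-owned dogs of several breeds and profiled with a droplet 3′ kit that tags each molecule with a unique molecular identifier (UMI), 1 library per dog. The healthy group (H1 to H7) held 7 clinically healthy dogs of about 7 to 9 years. The osteosarcoma group (OS1 to OS10) held 10 dogs of about 6 to 12 years with a spontaneous primary bone tumour, bled before any treatment. The genotype of all dogs is labelled Wt, and nothing else was given to either group.

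The libraries held 1332 to 7748 barcodes each, and a dog gave 783 to 4475 CD3E-positive cells with a median of 3917 to 6986 UMIs per cell. CD3D was detected in 84.4% of CD3E-positive cells and in 10.9% of other cells, and CD3G in 74.3% and 2.72%, so the CD3E gate held mostly T cells by these markers. Of the CD3E-positive cells, 2 or more B or myeloid markers were found in 8.72% to 25.3% per dog. Libraries shared 1124 of 91883 distinct barcodes, at most 22 between any pair of dogs. The gates used here were 21651 CD4-/CD8A- cells, 13720 CD4+/CD8A- cells, 7675 CD4-/CD8A+ cells and 209 cells with both transcripts. A minus sign means that no UMI was captured, which at this depth includes cells whose transcript was missed: CD4-/CD8A- cells were 36.1% to 58.0% of CD3E-positive cells per dog, with a median of 49.98%. A plus sign for CD4 has a limit as well, since the study describes CD4 in canine neutrophils and in some monocytes. CD4 was detected in 22.7% of CD3E-negative cells. The part of myeloid CD4 RNA in the CD4+/CD8A- gate was not tested.

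Each gene was sparse. Of CD3E-positive cells, 9.44% held a UMI of KANK1, 8.22% of KIAA0825, 7.60% of NMB, 7.49% of ID3, 7.07% of TMEM132D, 6.8% of SYNJ2 and 2.38% of MYB. In CD3E-negative cells the shares were 0.839% for KANK1, 0.735% for NMB, 1.09% for TMEM132D, 1.91% for KIAA0825 and 2.93% for SYNJ2, but 7.26% for ID3 and 3.21% for MYB. NMB, TMEM132D, KANK1 and KIAA0825 thus lay mostly in T cells, while ID3 and MYB were as frequent outside them. Between 52.7% (TMEM132D) and 81.1% (ID3) of the cells with a gene held a single UMI of it.

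Levels were summed per dog and gate as CPM, the usual scaling of counts to a common total, given as mean ± SD over 17 dogs. Since a sum pools cells, fewer expressing cells and less RNA per expressing cell cannot be told apart in it. Of the 7 genes, 6 had their highest mean of the 3 main gates in CD4-/CD8A- cells, and KIAA0825 was the exception.

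Among the regulators, ID3 was at 20.1 ± 7.83 CPM in CD4-/CD8A- cells, 14.7 ± 6.69 CPM in CD4+/CD8A- cells and 7.51 ± 7.44 CPM in CD4-/CD8A+ cells, where neighbours in that order lay within the larger SD. Its highest level was not in T cells: CD3E-negative cells with B cell markers held 125 ± 49.3 CPM of ID3, above CD4-/CD8A- cells by more than the SD. MYB was at 10.2 ± 4.44 CPM in CD4-/CD8A- cells, 8.84 ± 16.15 CPM in CD4-/CD8A+ cells and 5.08 ± 1.44 CPM in CD4+/CD8A- cells. The CD4-/CD8A+ mean was raised by OS5, at 70.0 CPM, and MYB was higher in CD4-/CD8A- than in CD4-/CD8A+ cells in 14 of 17 dogs. CD3E-negative cells with dendritic cell markers held 82.2 ± 43.5 CPM of MYB (12 dogs) and those with eosinophil or basophil markers 63.7 ± 31.0 CPM (13 dogs).

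NMB was at 24.5 ± 11.1 CPM in CD4-/CD8A- cells and 20.2 ± 9.84 CPM in CD4+/CD8A- cells, within the SD of each other, and lay below both by more than the SD at 5.24 ± 2.82 CPM in CD4-/CD8A+ cells. TMEM132D was at 37.4 ± 36.3, 26.7 ± 33.1 and 15.7 ± 20.5 CPM in the same order. The SDs of TMEM132D were as large as its means, yet its CD4-/CD8A- level exceeded its CD4+/CD8A- level in 17 of 17 dogs.

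KANK1 was at 37.7 ± 21.5 CPM in CD4-/CD8A- cells, 32.8 ± 19.4 CPM in CD4+/CD8A- cells and 13.7 ± 10.5 CPM in CD4-/CD8A+ cells. SYNJ2 was at 18.8 ± 9.21, 16.2 ± 5.96 and 8.95 ± 3.66 CPM, and cells with dendritic markers held a like level of SYNJ2 (17.3 ± 4.79 CPM, 12 dogs). KIAA0825 ran in another order, with 46.5 ± 16.0 CPM in CD4-/CD8A+ cells, 37.4 ± 15.7 CPM in CD4-/CD8A- cells and 18.5 ± 8.44 CPM in CD4+/CD8A- cells. It was higher in CD4-/CD8A+ than in CD4-/CD8A- cells in 11 of 17 dogs. For NMB, TMEM132D, KANK1, SYNJ2 and ID3 no CD4-/CD8A- mean exceeded the CD4+/CD8A- mean by more than the larger SD. That SD is the spread between dogs, whereas each dog gave cells to both gates. Within dogs, the CD4-/CD8A- level was above the CD4+/CD8A- level in 14 of 17 dogs for ID3. For NMB and for KANK1 it was above in 11 of 17.

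To compare shares of cells between gates of unequal depth, each cell was thinned to 3000 UMIs. The shares by CCR7 and GZMB pool cells over dogs, so they do not show the spread between dogs. The 7 genes then divided by CCR7 and GZMB. In CD4-/CD8A- cells, KANK1 was detected in 14.5% of CCR7+/GZMB- cells (median depth before thinning 5511 UMIs), 3.74% of CCR7-/GZMB- cells (5380 UMIs) and 0.995% of GZMB+/CCR7- cells (4324 UMIs). TMEM132D was detected in 11%, 3.41% and 0.58% of the same cells, and NMB in 8.98%, 4.46% and 0.553%. Among these sets of cells the 3 genes were thus most frequent in the CCR7+/GZMB- cells and detected in under 1% of the GZMB+/CCR7- cells. The 135 cells of this gate with both CCR7 and GZMB (median 6643 UMIs) are not part of that order. At full depth 2.96% of them held 5 of the 7 genes, 3.70% held 6 and 1.48% held 7. In the CCR7+/GZMB- cells these shares were 0.790%, 0.596% and 0.246%. In CD3E-negative cells with monocyte markers (median 11695 UMIs) NMB was detected in 0.301%, TMEM132D in 0.176% and KANK1 in 0.0836%.

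KANK1 was more frequent in the CCR7+ cells of the other gates as well. In CD4+/CD8A- cells without GZMB, KANK1 was detected in 11.3% of CCR7+ and 2.57% of CCR7- cells, and in CD4-/CD8A+ cells without GZMB in 11.1% and 2.62%. In the pooled cells, TMEM132D was as frequent in the CCR7+ cells of the CD8A gate (11.4%) as in those of the CD4-/CD8A- gate (11%). Dogs differed widely in this gene: over the whole CD4-/CD8A+ gate it ran from 0.483 CPM in OS1 to 80.6 CPM in H2. SYNJ2, at 6.47% in the CCR7+ and 4.10% in the CCR7- cells of the CD4-/CD8A- gate, was less divided, and its monocyte background was 1.10%.

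ID3 and KIAA0825 did not follow CCR7, and MYB did so only weakly in the CD4-/CD8A- gate. ID3 was detected in 5.57% of CCR7+/GZMB- and 7.05% of CCR7-/GZMB- cells of the CD4-/CD8A- gate, against 0.332% of GZMB+/CCR7- cells. MYB was detected in 2.26%, 1.81% and 0.774% of these cells, and was highest in the CD4-/CD8A+ cells with neither CCR7 nor GZMB at 3.1%. KIAA0825 was the only gene of the 7 to be higher in the GZMB+/CCR7- cells of the CD4-/CD8A- gate (7.62%) than in the CCR7+/GZMB- cells (4.99%), and it reached 10.1% in CD4-/CD8A+ cells with neither transcript.

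**Figure D1:**
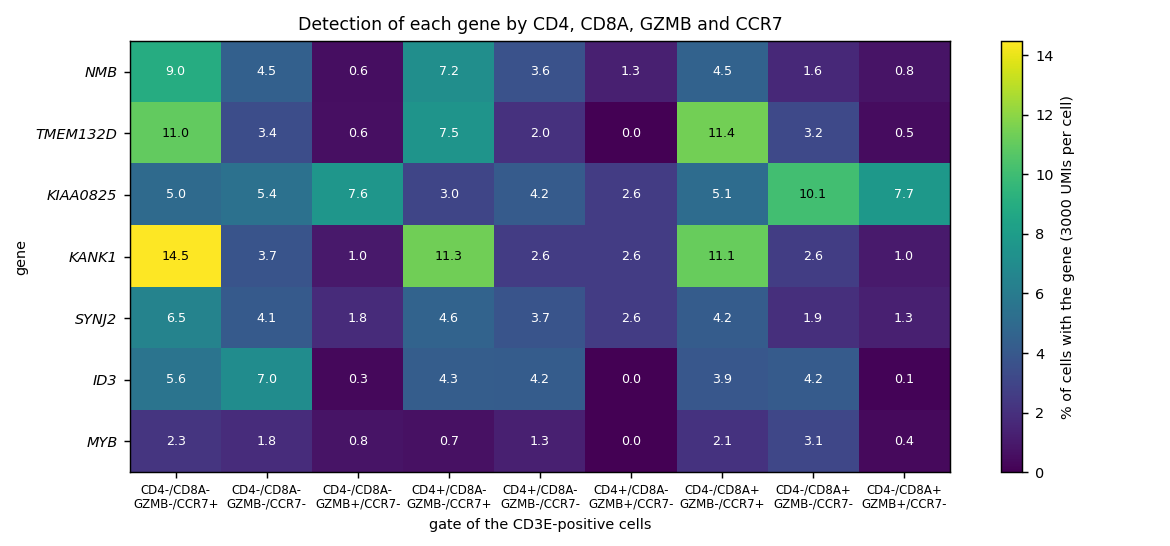
Percent of cells, pooled over dogs, in which each gene was detected after thinning every cell to 3000 UMIs, by CD4, CD8A, CCR7 and GZMB detection. Cells with both CCR7 and GZMB are not shown. Among the sets shown, KANK1, TMEM132D and NMB are highest where CCR7 was detected and GZMB was not, whereas KIAA0825 is highest in CD8A+ cells.

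Markers of other cell types moved with ID3 and MYB inside the CD3E gate. Of 3240 cells with ID3, 79 (2.44%) carried 2 or more of 7 B cell markers, against 0.9% of cells without ID3, and the summed level of those markers was 65.9 against 40.7 CPM. Of 1029 cells with MYB, 3.3% carried 2 or more dendritic cell markers and 7% carried 2 or more of 5 cycling markers, against 0.339% and 0.77% of cells without MYB. Monocyte markers (7.87% against 4.84%), neutrophil markers (13.8% against 10.1%) and eosinophil or basophil markers (1.36% against 0.298%) were also found in a larger share of cells with MYB, without thinning. The summed marker level was 651 against 633 CPM for monocytes, 4359 against 2042 CPM for neutrophils and 71 against 15.6 CPM for eosinophils and basophils. Cycling markers also moved with KIAA0825 (2.17% against 0.806%) and went the other way with TMEM132D (0.163% against 0.975%). The part of these cells in the levels of ID3, MYB and KIAA0825 was not tested.

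The genes were detected together more often than independent detection would give, although most cells with any of them held only 1. After thinning, KANK1 was detected in 31.9% of CD3E-positive cells that held 2 or more of the other 6 genes and in 4.79% of cells that held none, and TMEM132D in 27.0% and 3.41%. The same shares were 20.9% and 3.81% for NMB, 18.6% and 4.99% for KIAA0825, 16.1% and 3.24% for SYNJ2 and 12.3% and 3.85% for ID3. MYB, the rarest gene, had the largest ratio at 9.70 (8.90% against 0.918%). The ratios depended on depth: without thinning and at 1500 UMIs they were 5.99 and 15.2 for MYB, 3.48 and 9.29 for NMB and 2 and 6.11 for KIAA0825, and that of ID3 was 2.11 without thinning. The share was higher beside other members in 17 of 17 dogs for 6 of the genes and in 16 of 17 for NMB. Since members were picked as markers of 1 cluster, this is a description of that choice.

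All 21 pairs of genes were found together in more CD3E-positive cells than their shares within each dog would give. TMEM132D and KANK1 shared 572 cells against 182 expected, KIAA0825 and MYB 124 against 31.2, and KIAA0825 and ID3, the pair with the smallest excess, 145 against 92.4. The excess was also read within gates. In CD4-/CD8A- cells the ratio of detection beside 2 or more members to detection beside none ran from 3.39 (ID3) to 11.8 (MYB), and in CD4+/CD8A- cells from 1.04 (ID3) to 3.56 (TMEM132D). In CD4+/CD8A- cells the share was higher beside other members in 12 of 17 dogs for TMEM132D, 10 of 17 for ID3 and 4 of 17 for MYB. The ratio in that gate moved with depth, from 1.41 to 6.27 for MYB and from 1.04 to 0.808 for ID3 at 1500 UMIs. In CD4-/CD8A+ cells the pooled ratio was 12.2 for ID3, 10.6 for KANK1, 7.9 for TMEM132D and 1.27 for KIAA0825, but it rested on 85 to 127 cells with 2 or more other members. There the share was higher beside other members in 7 of 15 dogs for ID3, 7 of 16 for TMEM132D and 11 of 16 for KANK1, against 17 of 17 for each in CD4-/CD8A- cells, and at 1500 UMIs 0 of 51 such cells held ID3. The difference between gates was not tested. In CD4+/CD8A- cells TMEM132D and KANK1 still met in 150 cells against 74.1 expected, whereas KANK1 and ID3 met at 0.699 times and TMEM132D and MYB at 0.547 times the expected number.

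At full depth, 27944 CD3E-positive cells (64.6%) held none of the 7 genes, 11293 held 1, 2927 held 2, 677 held 3 and 414 held 4 or more. After thinning, cells with 2 or more genes were 1896 against 1697 expected if the genes fell independently within each dog and gate, a ratio of 1.12. The ratio was 2.95 for 3 or more (534 against 181 cells), 18 for 4 or more (232 against 12.9 cells) and 152 for 5 or more (91 against 0.599 cells). The co-detection thus lay in the small number of cells with several genes, whose members are followed next.

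Of the 1091 cells with 3 or more genes, 758 (69.5%, exact 95% confidence interval 66.6 to 72.2%, counting error only) were CD4-/CD8A-, 256 were CD4+ and 72 were CD8A+. Per dog the CD4-/CD8A- share was 47.8% at the lowest, 75% at the median and 95% at the highest. In the pooled cells it was 86% with 4 or more genes and 92.7% (204 of 220 cells) with 5 or more, where the interval, again counting error only, was 88.5 to 95.8%. Per dog it ran from 70% to 100% with 4 or more genes, over the 15 dogs with at least 10 such cells. With 5 or more genes it ran from 82.6% to 100% over 10 such dogs. Of the 220 cells with 5 or more genes, 68.2% held CCR7 and 8.18% held GZMB, and 126 were CD4-/CD8A-/GZMB-/CCR7+. Of the 1091 cells with 3 or more genes, 33 carried 3 or more genes of a γδ T cell list (3.03%, against 4.62% of all CD3E-positive cells), and 2 or more B or myeloid markers were found in 13% against 14.2%. Cycling cells went the other way in the pooled cells: 9 of the 1091 (0.825%) carried 3 or more cycling markers against 0.4% of all CD3E-positive cells, though 0 of the 414 with 4 or more genes did. Pooled MKI67 was at 13.6 CPM with 3 or more genes and 4.7 CPM with none. Summed cycling markers with 3 or more genes had a median over dogs of 25.5 CPM (healthy, highest 199) and 23.2 CPM (osteosarcoma, highest 463). In all CD3E-positive cells the medians were 29.1 and 28.3 CPM, so few dogs set the pooled rise.

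The transcripts of the gates went with the number of genes detected, given here as pooled levels without a test. CD4 was at 114 CPM in cells with none of the 7 genes, 140 CPM with 2, 127 CPM with 3, 60.5 CPM with 4 and 7.78 CPM with 5 or more. CD8A was at 65.6 CPM with none and 5.84 CPM with 5 or more, and CD3E at 894 and 877 CPM. The median depth was 5235 UMIs in cells with none and 6009 UMIs in cells with 5 or more. Grouping by genes detected at full depth itself favours deeper cells, and the part of missed CD4 and CD8A transcripts was not tested. Of the 11 cytotoxic genes 9 were lower in cells with 5 or more genes than in cells with none, while CTSW was higher (79.6 and 187 CPM), as was GZMK. GZMB went from 404 to 19.5 CPM, CCL5 from 1041 to 1.95 CPM and KLRB1, a receptor of NK and innate-like T cells, from 232 to 0.648 CPM.

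The other 4 genes of the list of DN markers, which the study had picked on the same cells, were higher the more of the 7 genes a cell held. CTLA4, an inhibitory receptor, was at 87.0 CPM with none, 156 CPM with 3, 289 CPM with 4 and 487 CPM with 5 or more. BICDL1 went from 45.2 to 321 CPM, SLF1 from 30.4 to 259 CPM and KIAA1549 from 26.0 to 125 CPM. BACH2, a repressor of effector differentiation, went from 437 to 1653 CPM and TCF7, a naive and memory T cell factor, from 110 to 268 CPM. GZMK, another granzyme, had a dip: 120 CPM with none, 63.8 CPM with 2, 284 CPM with 4 and 512 CPM with 5 or more.

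LEF1 and IL7R (picked after their values were seen) were higher in cells with 3 genes than in cells with 5 or more. LEF1, a partner of TCF7, was at 740 CPM with none, 1949 CPM with 3 and 1272 CPM with 5 or more. IL7R, the survival receptor of naive and memory T cells, was at 904 CPM with none, 762 CPM with 3 and 103 CPM with 5 or more. IKZF2, a factor of regulatory and agonist-selected T cells, was detected in 29.0% of cells with none, 15.1% with 3 and 12.3% with 5 or more; its pooled level with 3 genes, 341 CPM against 221 CPM with none, rested on few cells, since those with MYB and 2 other members held 1292 CPM in all but a median of 235 CPM over the 5 dogs with at least 10 of them. Of the cells with exactly 3 genes 59.4% were CD4-/CD8A-. IL2RA, the high-affinity interleukin receptor chain of regulatory and activated T cells, was at 16.3 CPM with none and had no UMI in cells with 5 or more genes. FOXP3, the regulatory T cell factor, was too low to be read at this depth (1.08 CPM with none).

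**Figure D2:**
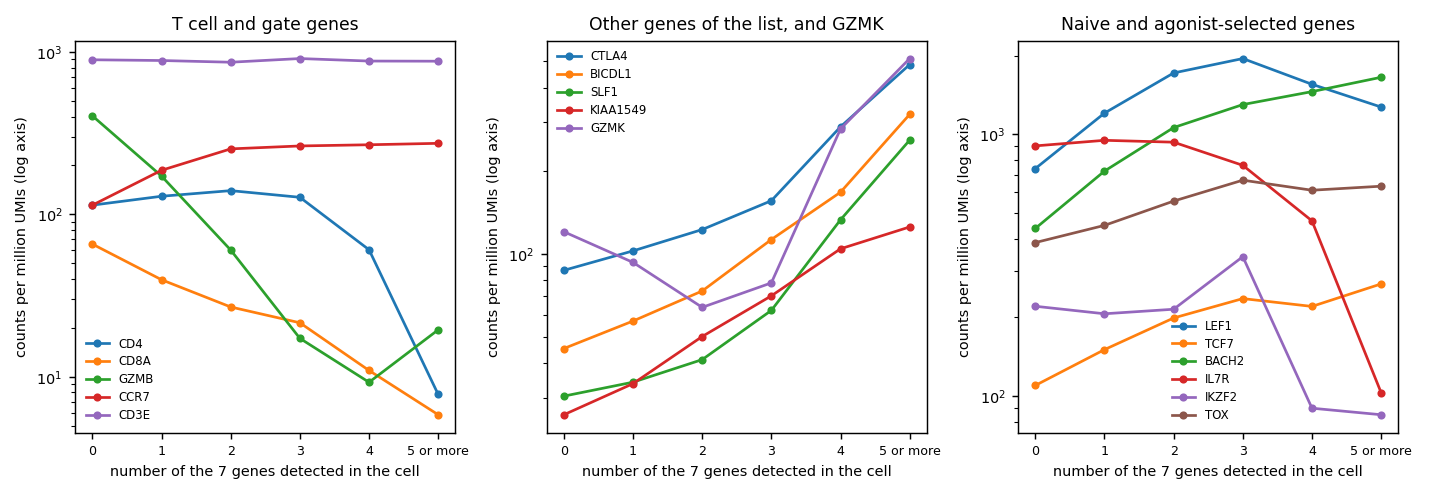
Level in CPM of gate genes, other DN markers and other T cell genes in CD3E-positive cells grouped by how many of the 7 genes were detected (0 to 5 or more), pooled over 17 dogs. CD4 and CD8A are lowest and CTLA4, SLF1, BICDL1 and GZMK highest in cells with 5 or more genes.

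Among all other genes, those whose pattern was most like the 7 were ranked within CD4-/CD8A- cells by the median over 15 dogs of the log2 ratio of detection between cells with 3 or more members and cells with none (428 and 13022 cells after thinning, 2218 genes detected in at least 20% of the former). APP, the amyloid precursor protein, led with 2.84, ahead of SLF1, MCTP1 (2), POU2F2 (1.92), SNX9 (1.87), GZMK (1.86), KIAA1549, CTLA4 (1.78), SESN3 and GCNT2 (1.71). BICDL1 came next at rank 11 (1.69). The ranking used the cells the members chose and a minimum set in the cells with several members, so it has no test and cannot be read against the other genes.

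Cells with MYB fell into unlike sets by what else they held (the genes named here were picked after their values were seen). The 204 cells with MYB and 3 or more other members were 90.7% CD4-/CD8A- and held 430 CPM of CTLA4, 233 CPM of SLF1, 462 CPM of GZMK, 121 CPM of IKZF2 and 4.82 CPM of MKI67, a cycling marker. The 433 cells with MYB and no other member were 49.9% CD4-/CD8A- and 37% CD4+, and held 176 CPM of CTLA4, 36.3 CPM of SLF1, 77.1 CPM of GZMK, 689 CPM of IKZF2 and 77.1 CPM of MKI67. In cells without MYB, IKZF2 was at 200 CPM, CTLA4 at 94.8 CPM and SLF1 at 33.1 CPM. MYB alone was thus not a marker of the cells with several members.

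In all CD3E-positive cells the dogs differed most in TMEM132D among the 7 genes. It ran from 1.34 CPM in OS1 to 95.8 CPM in H2, a 71.3-fold range with a coefficient of variation of 103%, and 0.517% of 8704 genes of at least 5 CPM varied more. OS1 was lowest in every gate, and H2, OS3, OS9 and H5 were the highest 4 dogs in all CD3E-positive, CD4-/CD8A- and CD4+/CD8A- cells. In CD4-/CD8A+ cells MYB varied more, with a coefficient of variation of 183%, than TMEM132D with 131%. In all CD3E-positive cells KANK1 ran from 6.64 to 73.8 CPM (11.1-fold), and KIAA0825, the steadiest, from 20.6 to 62.3 CPM (3.03-fold, coefficient of variation 34.8%). H2 and OS3 were also the highest dogs for SYNJ2 and KIAA0825, whereas NMB was highest in H3, ID3 in OS8 and MYB in OS5. With 1 library per dog, dog, breed and library cannot be told apart in these values.

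The share of CD3E-positive cells with 3 or more genes, after thinning, was 1.53% at the lowest, 1.87% at the median and 2.56% at the highest in healthy dogs, and 0.203%, 0.733% and 3.12% in osteosarcoma dogs. The mean was 1.98 ± 0.422% (SD, n = 7) in healthy and 1.03 ± 0.89% (n = 10) in osteosarcoma dogs, a ratio of 1.92. Of the 10 osteosarcoma dogs, 9 lay below the healthy median and 8 below the lowest healthy dog, of which OS9 (45 of 2942 cells) was level with the lowest healthy dog, H4 (65 of 4243 cells), at the printed 1.53%. OS3, with 23 of 736 cells (exact 95% interval 1.99 to 4.65%), lay above every healthy dog. OS10 was lowest with 4 of 1974 cells (0.0552 to 0.518%). Counting 4 or more genes gave 0.601%, 0.85% and 1.16% in healthy and 0%, 0.393% and 1.09% in osteosarcoma dogs, and leaving TMEM132D out gave 1.11%, 1.26% and 1.64% against 0.101%, 0.551% and 1.49%. How far the groups lay apart moved with the count. Without thinning the shares were 2.16%, 2.6% and 6.32% in healthy and 0.638%, 1.75% and 5.24% in osteosarcoma dogs, with 7 of 10 below the healthy median and 6 below the lowest healthy dog, and with 5 or more genes after thinning 10 lay below the median and 2 below the lowest. Without thinning 10 lay below the healthy median and 9 below the lowest healthy dog both with 4 or more and with 5 or more genes. Within the CD4-/CD8A- gate the shares were 2.67%, 3.28% and 5.19% in healthy and 0.376%, 1.34% and 3.92% in osteosarcoma dogs. No test was made, since the genes were selected with results on these dogs known. The osteosarcoma dogs were about 6 to 12 years old and the healthy dogs about 7 to 9. The study proposes that the lower DN T cell share it found is partly an effect of age. The part of age in the shares given here was not tested.

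**Figure D3:**
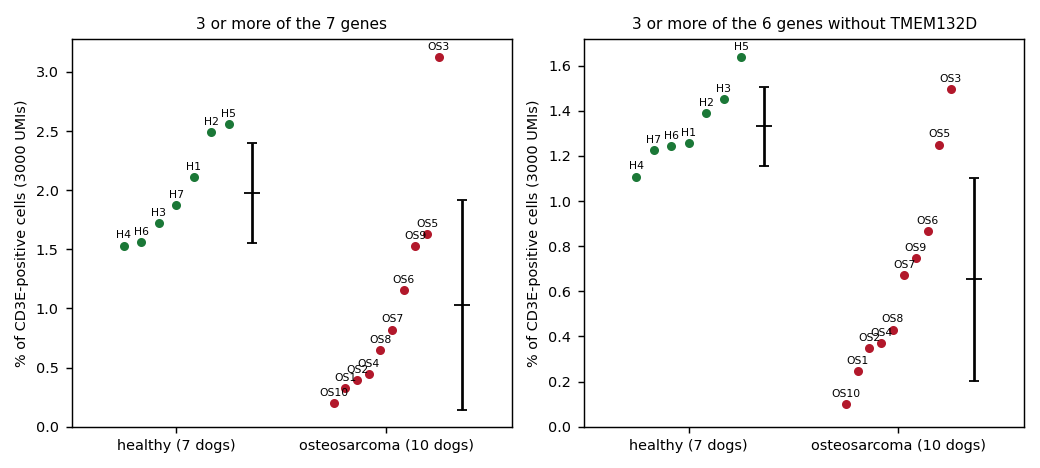
Percent of CD3E-positive cells per dog after thinning to 3000 UMIs, with 3 or more of the 7 genes (left) and with 3 or more of the 6 genes without TMEM132D (right). Each point is a dog, and the bar and whiskers are the mean and SD over the dogs of a group. On the left, the 7 healthy dogs lie between 1.53% and 2.56%, and 8 of the 10 osteosarcoma dogs lie at or below 1.53%, with OS3 at 3.12% above every other dog.

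The share of CD3E-positive cells without CD4 and CD8A counts used none of the 7 genes and was compared over dogs, although this gate too was chosen with results on these dogs known. Here CD4 and CD8A were read after thinning, which adds cells whose transcript was missed. The share was 53.5%, 63.2% and 67.0% at the lowest, median and highest in healthy dogs and 56.4%, 65.4% and 75.1% in osteosarcoma dogs. The osteosarcoma mean was 3.35 percentage points higher (65.3 ± 4.996 against 62.0 ± 4.44%), with 8 of 10 dogs above the healthy median. The groups did not differ beyond their spread (two-sided exact Wilcoxon test over dogs, p = 0.161, smallest possible p 0.000103). At full depth the mean share was 51.8% in osteosarcoma and 46.8% in healthy dogs. This gate is far wider than the study's DN T cell cluster, whose share the study found lower in osteosarcoma, so it does not measure that cluster.

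Expression in osteosarcoma against healthy dogs was compared in sums of counts for each dog by the quasi-likelihood test of edgeR, fitted on every gene and called at a Benjamini-Hochberg adjusted p below 0.01 with an absolute log2 fold change above 0.58. In all CD3E-positive cells, 0 of 15379 genes (0%) and 0 of the 7 genes were called. At an unadjusted p below 0.05 there were 585 genes (3.8%) by edgeR, 249 of them lower in osteosarcoma (1.62%), and 562 by DESeq2, which called 0 as well. Of the 7 genes, NMB and KANK1 were below 0.05 and lower. Their adjusted p by edgeR was 1, so neither is a call.

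In CD4-/CD8A- cells 0 of 14518 genes (0%) were called by edgeR and 0 by DESeq2, with 604 (4.16%) and 564 at an unadjusted p below 0.05, and 263 (1.81%) below it and lower by edgeR. All 7 genes had a negative log2 fold change there, with a median of -0.46 against 0.01 over all genes, of which 47.7% were negative. This is a description without a test, since the 7 genes are detected in the same cells and were chosen with results on these dogs known. NMB, KANK1 and KIAA0825 were below an unadjusted 0.05, which is not a call and carries the same limit of choice. NMB was at 18.3, 28.7 and 50.7 CPM at the lowest, median and highest healthy dog and at 11.47, 16.7 and 40.3 CPM in osteosarcoma dogs. Of the 10 osteosarcoma dogs 6 lay below every healthy dog for NMB and OS5, at 40.3 CPM, lay inside the healthy range; the log2 fold change was -0.72 ± 0.24 (SE, edgeR, unadjusted p = 0.00798, adjusted p = 1).

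KANK1 was at 27.9, 43.3 and 91.8 CPM in healthy and 8.27, 24.7 and 64.7 CPM in osteosarcoma dogs, 5 of which lay below every healthy dog. Its log2 fold change was -0.80 ± 0.30 (edgeR, unadjusted p = 0.0144, adjusted p = 1). KIAA0825 was at 31.9, 36.5 and 77.3 CPM against 21.2, 28.9 and 68.6 CPM, with 8 of 10 osteosarcoma dogs below the lowest healthy dog and OS3 far above the rest. Its log2 fold change was -0.46 ± 0.17 (edgeR, unadjusted p = 0.0141, adjusted p = 1). Leaving out each dog in turn kept all 3 negative, at -0.90 to -0.57 for NMB, -1.05 to -0.70 for KANK1 and -0.58 to -0.37 for KIAA0825.

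TMEM132D, at 13.5, 31.8 and 123 CPM in healthy and 2.03, 10.8 and 100.4 CPM in osteosarcoma dogs, had a log2 fold change of -0.58 ± 0.60 in CD4-/CD8A- cells, no larger than its error. SYNJ2 was at -0.11 ± 0.25, ID3 at -0.04 ± 0.27 and MYB at -0.31 ± 0.30, each with an unadjusted p above 0.05. In all CD3E-positive cells the values were -0.58 ± 0.26 for NMB, -0.65 ± 0.30 for KANK1, -0.49 ± 0.65 for TMEM132D, -0.18 ± 0.16 for KIAA0825 and 0.09 ± 0.28 for ID3, and SYNJ2 and MYB were within 0.01 of 0.

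In CD4+/CD8A- cells 0 of 13912 genes (0%) were called, with 522 (3.75%) by edgeR and 506 by DESeq2 at an unadjusted p below 0.05 and 225 (1.62%) below it and lower. None of the 7 genes was among them, and the median of the 7 was -0.09. KANK1 was furthest from 0 at -0.57 ± 0.33 (edgeR, unadjusted p = 0.103). In CD4-/CD8A+ cells 0 of 12959 genes (0%) were called, with 514 (3.97%) and 402 below 0.05 and 217 (1.67%) below it and lower, none of them among the 7. MYB there was at 1.09 ± 0.70 (edgeR, unadjusted p = 0.135), with OS5 alone at 70.0 CPM against 0.704 to 15.3 CPM in the other osteosarcoma dogs. Without OS5 the log2 fold change of MYB was 0.13.

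**Figure D4:**
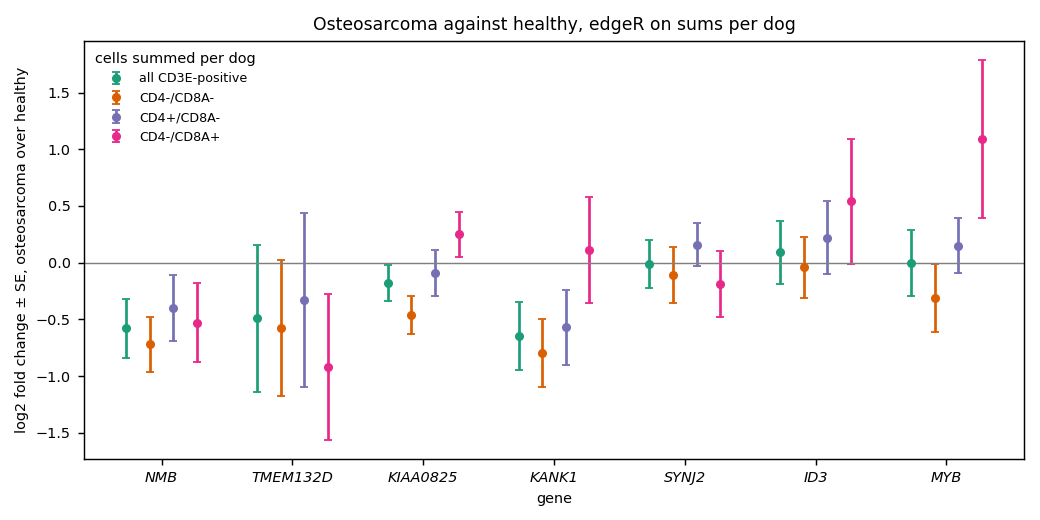
Log2 fold change of each gene, osteosarcoma against healthy, with its standard error, in all CD3E-positive cells and in each gate (edgeR on counts summed per dog). All 7 genes lie below 0 in CD4-/CD8A- cells, 3 of 7 do in CD4-/CD8A+ cells, and none passed the call threshold in any population.

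Whether the osteosarcoma difference was itself unlike in CD4-/CD8A- and other CD3E-positive cells was tested with an interaction term over both sums of each dog. No gene passed the call rule (0 of 15379, 0%, by edgeR and by DESeq2, with 637, or 4.14%, and 260 at an unadjusted p below 0.05, and 280, or 1.82%, below it and lower by edgeR). The difference was negative for all 7 genes, with a median of -0.30 against 0.01 over all genes, of which 46.4% were negative. This count is a description without a test, since the 7 genes are detected in the same cells and were chosen with results on these dogs known. The unadjusted p-values of the 7 genes that follow carry the same limit of choice. The difference was -0.60 ± 0.15 for KIAA0825 (edgeR, unadjusted p = 0.000516, adjusted p = 0.981), -0.82 ± 0.26 for MYB (unadjusted p = 0.00361), -0.42 ± 0.16 for KANK1 (unadjusted p = 0.0133) and -0.27 ± 0.13 for ID3 (unadjusted p = 0.0424). For the other 3 it was -0.30 for NMB, -0.23 for SYNJ2 and -0.12 for TMEM132D, none below 0.05. For MYB, the other CD3E-positive cells include the CD4-/CD8A+ cells, in which OS5 stood apart at 70.0 CPM. An osteosarcoma difference that is unlike in CD4-/CD8A- and other CD3E-positive cells is thus not established for any of the 7 genes.

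The other genes of related lists gave no call in any population. Of the other 4 DN markers, BICDL1 alone was below an unadjusted 0.05 in CD4-/CD8A- cells, at -0.39 ± 0.13, and it was at -0.37 ± 0.11 in CD4+/CD8A- cells. Over all genes the share below 0.05 was 4.16% in these cells, at which lists of this size would hold about 0 or 1 such gene, so nothing is read from the counts that follow. Of the 5 tested E protein and ID genes 0 were below 0.05 in CD4-/CD8A- cells (median -0.08), and likewise 0 of 6 partners of MYB (median -0.06), 0 of 9 regulatory T cell genes (median 0.12) and 0 of 11 cytotoxic genes (median 0.06). NMB was below it among the 3 bombesin-like peptides and receptors that passed the filter of the 5 listed, and KANK1 among the 5 of 7 KANK and synaptojanin relatives that passed. Of 13 agonist-selected and innate-like T cell genes NR4A3 was lower, of 7 naive T cell genes IL7R was higher, and of 10 γδ T cell genes PARD3B and IL17RB were lower, each at an unadjusted p below 0.05 and named after its value was seen.

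Cells with 3 or more genes were also compared between groups in the 14 dogs with at least 25 such cells (7 healthy, 7 osteosarcoma), leaving the 7 genes unread. Of 10279 genes 0 (0%) were called by edgeR and by DESeq2, with 469 (4.56%) and 318 at an unadjusted p below 0.05. CTLA4 was at -0.41 ± 0.25, BICDL1 at -0.40 ± 0.24, SLF1 at -0.27 ± 0.20 and KIAA1549 at -0.54 ± 0.29 (edgeR, adjusted p = 0.999 for each). In simulated data a 3-fold change in 200 genes was called in 73.5% of them at this sample size, so smaller changes could be missed.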

How the data were processed

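The authors deposited filtered gene by barcode matrices of UMI counts per dog, made with Cell Ranger 7.0.0 against CanFam3.1 (both from the submitters' processing notes, which also name Seurat); the study ran its alignment 2 times, counting introns in 1 run, and the run behind the deposited matrices is not given in the sources used here. The matrices with their gene and barcode lists were the files analysed here, and they hold no column of the authors' own comparisons. Processed Seurat objects were not analysed here. From these deposited counts, barcodes with 200 to 4500 genes, 500 to 20000 UMIs and under 10% mitochondrial counts were kept, as in the study's filter. Doublets were removed per dog by Scrublet score (scanpy 1.11.5) at 0.8% per 1000 barcodes, which left 80557 cells. Total depth per dog is given in the report as UMIs per cell. A T cell was a cell with a CD3E count, gates were set on raw detection of CD4, CD8A, GZMB and CCR7, and shares were computed after drawing 3000 UMIs per cell, leaving out shallower cells. For the tested share of cells without CD4 and CD8A counts, these 2 genes were read after that draw.

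Groups were taken from the sample labels, and 1 library is 1 dog. Counts were summed per dog (at least 25 cells, genes with at least 10 counts) and tested with edgeR 4.0.16 (R 4.3.3, TMM, quasi-likelihood), with DESeq2 1.42.0 as an alternative. The study's methods name DESeq2 on such sums, with these minimums and call thresholds, and a Wilcoxon test over cells. The interaction fit had dog as a block. On simulated counts a 3-fold change in 200 genes was called in 74.5% of them for all CD3E-positive cells and in 80.5% for CD4-/CD8A- cells. The members, gates and gene lists were chosen with earlier results of these data known. Named genes were the 7 members, the gate genes, genes of lists for DN, regulatory, cytotoxic, naive, agonist-selected and γδ T cells, E proteins, MYB partners, bombesin-like peptides and KANK and synaptojanin relatives, and the 10 genes most like the members; where a gene of a list is named beside the number of members a cell held, it was picked after its values were seen. Several lists come from the study, which chose them on these dogs. ID2 had no entry in the matrices and was not analysed. Ages came from the study and were rounded to years.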

Additional observations from a re-analysis of the deposited data

Results flagged for a closer look

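Single dogs stood apart from the rest of their group by Dixon's 95% critical value in 17 of 60 gene, gate and group combinations, always on the high side. A rate of about 1 in 20 by chance alone assumes normally distributed values, so the number flagged is not read as a result. Combinations share dogs and cells and are not independent. All values are in CPM unless a percent is given.

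Among healthy dogs H2 stood apart 6 times. H2 held 27.4 of SYNJ2 in all CD3E-positive cells (other dogs 12.8 to 17), 35.7 in CD4-/CD8A- cells (12.9 to 22.0) and 28.2 in CD4+/CD8A- cells (9.58 to 16.2). It held 36.3 of KIAA0825 in CD4+/CD8A- cells (13 to 19.9), and in CD4-/CD8A+ cells 80.6 of TMEM132D (4.60 to 21.7) and 41.1 of KANK1 (3.87 to 19.1). H5 held 48.5 of NMB in CD4+/CD8A- cells (8.82 to 25.7).

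Among osteosarcoma dogs OS3 stood apart for KIAA0825 in all CD3E-positive cells (62.3, others 20.6 to 33.9), in CD4-/CD8A- cells (68.6, others 21.2 to 33.4) and in CD4+/CD8A- cells (41.8, others 11.1 to 23.4). OS3 also stood apart for SYNJ2 in all CD3E-positive cells (36.2, others 7.90 to 18.7) and in CD4-/CD8A- cells (44.1, others 9.12 to 24.5), and for the share of CD3E-positive cells with 3 or more members (3.12%, others 0.203 to 1.63%). OS5 stood apart for NMB in all CD3E-positive cells (35.0, others 11 to 20.6) and in CD4-/CD8A- cells (40.3, others 11.47 to 21.9), and in CD4-/CD8A+ cells for ID3 (33.3, others 0.265 to 11) and MYB (70.0, others 0.704 to 15.3).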

How the results depend on the processing

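No gene was called in 150 of 151 alternative fits, and the exception was the cells with several members without a filter on low counts, where 4 genes were called. Of 1535 log2 fold changes of the 7 genes and the other DN markers under alternatives, 0 were called, 1475 kept their sign and 60 changed it. In all CD3E-positive cells SYNJ2 turned positive at 0.06 with age as a covariate and at 0.01 with at least 2 CD3E counts, and MYB at 0.01 with DESeq2, DESeq2 size factors, filterByExpr, no filter on low counts, at least 2 CD3E counts or cells with B or myeloid markers left out. In CD4-/CD8A- cells ID3 turned to 0.02 with age as a covariate or without cells with B or myeloid markers. In CD4+/CD8A- cells MYB turned to -0.19 with the looser cell filter and CTLA4 to -0.03 with age, and SLF1 to 0.01 with at least 2 CD3E counts. In CD4-/CD8A+ cells CTLA4 turned to 0.02 with age or at least 2 CD3E counts.

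Leaving out each dog gave ranges in all CD3E-positive cells of -0.17 to 0.08 for SYNJ2, -0.08 to 0.20 for ID3 and -0.22 to 0.12 for MYB. In CD4-/CD8A- cells it gave -0.23 to 0.06 for ID3, in CD4+/CD8A- cells -1.13 to 0.02 for TMEM132D, -0.25 to 0.04 for KIAA0825, -0.09 to 0.13 for CTLA4 and -0.08 to 0.02 for SLF1, and in CD4-/CD8A+ cells -0.12 to 0.60 for KANK1, -0.23 to 0.14 for CTLA4 and -0.30 to 0.04 for KIAA1549. The cause of these turns was not tested.

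Healthy and osteosarcoma dogs share the numbers 1 to 7, but same-number dogs correlated at -0.24 to 0.18 and none best with its own number, so the numbers do not pair the dogs. With a replicate block 0 genes were called in the 4 comparisons fitted so, and in all CD3E-positive cells SYNJ2 turned to 0.01 and MYB to 0.06, in CD4+/CD8A- cells CTLA4 to -0.03 and SLF1 to 0.01, and in CD4-/CD8A+ cells CTLA4 to 0.17 and KIAA1549 to 0.06.

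The share of CD3E-positive cells with at least 3 of the 7 members, osteosarcoma minus healthy, moved from -0.95 to -1.82 percentage points at 2 or more members and -0.1845 points at 5 or more (added after seeing the data), and leaving out each dog gave -1.183 to -0.853 points. The share itself falls with the count, and the ratio of the healthy to the osteosarcoma mean rose. It was 1.43 at 2 or more members, 1.92 at 3 or more, 2.09 at 4 or more and 2.18 at 5 or more. The CD4-/CD8A- share of those cells was 56.6% at 2 or more members, 86% at 4 or more and 92.7% at 5 or more. Without thinning the co-detection ratio was 3.48 for NMB, 2 for KIAA0825, 2.11 for ID3 and 5.99 for MYB, and at 1500 UMIs it was 9.29 for NMB, 6.11 for KIAA0825 and 15.2 for MYB. Depth limits MYB, SYNJ2 and ID3 most: their UMIs in all CD3E-positive cells numbered 1831, 3925 and 4096.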

Other observations

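MYB was most frequent among CD4-/CD8A+ cells in OS5. Of its 155 CD4-/CD8A+ cells 20 (12.9%) held MYB, with 63 UMIs, whereas in the other dogs 0.36% to 4.21% of such cells held it. In OS5, IKZF2 was at 2370 CPM in the CD4-/CD8A+ cells with MYB and 809 CPM in those without, and TCF12, an E protein gene, at 3024 and 755 CPM. OS5 held 63 of the 266 MYB UMIs in these cells of all dogs. The direction was shared: IKZF2 was higher with MYB in 13 of 17 dogs and TCF12 in 13 of 17, with 2 to 20 cells with MYB per dog (for IKZF2 the exceptions included H2, at 0 against 402 CPM, and OS3, at 613 against 978 CPM). These genes were picked after their values were seen and have no test.

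The 140 cells with MYB and 2 other members held 1292 CPM of IKZF2, but the 5 dogs with enough such cells ran from 106 CPM through a median of 235 CPM to 4083 CPM, so that 1 dog set the pooled value. GATA3 was at 43.4 CPM in the cells with MYB and 3 or more other members.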
